A study of Arabidopsis thaliana with 7 samples.

Results

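The last steps of chlorophyll synthesis were followed through 8 Arabidopsis thaliana genes, taken by locus identifier from a table of 27655 genes. They encode the protochlorophyllide oxidoreductases PORA (AT5G54190), PORB (AT4G27440) and PORC (AT1G03630), the chlorophyllide a oxygenase CAO (AT1G44446), chlorophyll synthase CHLG (AT3G51820), geranylgeranyl reductase CHLP (AT1G74470) and the light-harvesting-like proteins LIL3.1 (AT4G17600) and LIL3.2 (AT5G47110). In TAIR10.1 these protein-coding genes are annotated as PORA (chr5:21990864-21992814), PORB (chr4:13725546-13727440), PORC (chr1:907523-909650), CAO (chr1:16848308-16851271), CHLG (chr3:19215930-19219128), CHLP (chr1:27991165-27993445), LIL3.1 (chr4:9803624-9805410) and LIL3.2 (chr5:19133986-19135414). RNA was from whole seedlings of the Col-0 accession at an age of 12 days, raised in long days at 16 °C on 1/2 MS medium and harvested at zeitgeber time 4, that is 4 h after lights on. The groups were wild type (WT, 3 libraries) and the glk1 glk2 double mutant in the same accession (4 libraries), with no treatment that differed between them, and no source used here gives the alleles. Levels are TPM values, a share of each library corrected for transcript length and scaled to a total of 1000000, so levels of different genes can be set side by side, but the read depth behind a value is unknown. The labels do not tell separate plantings from repeat libraries, so the p-values cover the spread between these 7 libraries only, which may be technical.

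In angiosperms POR enzymes reduce protochlorophyllide to chlorophyllide in a step that needs light, and CAO oxidizes chlorophyllide a to chlorophyllide b. CHLP reduces the geranylgeranyl group to the phytyl group, which also goes into tocopherols, and CHLG joins the tail to chlorophyllide. LIL3 proteins are membrane proteins related to the light-harvesting antenna, known in Arabidopsis to bind and stabilise CHLP and POR. The transcription factors GLK1 and GLK2 belong to the GARP family and are known to promote chloroplast development.

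The POR and LIL3 genes are families of similar copies, so their sequences are shown first, as they decide whether short reads can be assigned to one copy. Below are stretches of 60 bases from the middle of the coding sequences, read from RefSeq's annotation of TAIR10.1, with capitals where a copy differs from PORB (for PORA and PORC) or from LIL3.1 (for LIL3.2).
PORA (coding bases 616 to 675): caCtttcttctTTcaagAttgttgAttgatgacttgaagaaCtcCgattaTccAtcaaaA
PORB (coding bases 604 to 663): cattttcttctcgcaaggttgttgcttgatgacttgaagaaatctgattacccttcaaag
PORC (coding bases 607 to 666): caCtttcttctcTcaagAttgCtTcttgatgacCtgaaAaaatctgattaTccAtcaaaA
LIL3.1 (coding bases 394 to 453): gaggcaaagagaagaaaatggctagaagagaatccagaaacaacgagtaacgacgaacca
LIL3.2 (coding bases 385 to 444): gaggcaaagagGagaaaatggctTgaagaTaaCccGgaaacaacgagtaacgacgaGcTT
In this stretch PORA differed from PORB at 10 bases, PORC from PORB at 10 and LIL3.2 from LIL3.1 at 8. Over the whole aligned coding sequences PORA and PORB were 83.1% identical, PORB and PORC 72.9%, and LIL3.1 and LIL3.2 79.5%. No exact stretch of 50 bases was shared between any members. All 50-base stretches of PORA, PORC, CAO, CHLG and LIL3.2 were their own, with no exact match in a transcript annotated for another gene, on either strand. For PORB 98.7%, for CHLP 86.3% and for LIL3.1 74.0% of the stretches were. PORC and CAO also overlap a gene on the opposite strand, AT1G03620 and AT1G44414, but the exons overlap by 22 and 36 bases, less than a stretch. These genes were at 1.06 to 2.22 and 0.27 to 0.73 TPM over all libraries. The other stretches of PORB, CHLP and LIL3.1 lay in the 3′ overlaps with AT4G27450, AT1G74480 and AT4G17610 on the opposite strand. No source used here gives the strand setting of the counting, so reads in those overlaps cannot be told apart. AT1G74480 was at 0 to 0.15 TPM and AT4G17610 at 1.57 to 2.90 TPM over all libraries. AT4G27450 was at 58.0 to 74.3 TPM in WT and at 33.8 to 45.1 TPM in the mutant, and its part in the PORB values was not tested.

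The promoters of 3 members with large falls, PORA, PORB and CAO, and of CHLG, which did not fall, are shown as 180 bases before the annotated start of the gene (TAIR10.1, 5′ to 3′). Capitals mark CCAATC, a motif reported for GLK proteins, and CACGTG, the G-box. AGATTCT was searched as well, all 3 on both strands, and no matches overlapped.
PORA (chr5:21992815-21992994, minus strand): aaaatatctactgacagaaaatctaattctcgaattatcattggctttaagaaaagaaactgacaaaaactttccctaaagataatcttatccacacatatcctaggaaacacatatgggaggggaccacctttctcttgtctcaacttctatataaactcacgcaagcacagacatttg
PORB (chr4:13725366-13725545, plus strand): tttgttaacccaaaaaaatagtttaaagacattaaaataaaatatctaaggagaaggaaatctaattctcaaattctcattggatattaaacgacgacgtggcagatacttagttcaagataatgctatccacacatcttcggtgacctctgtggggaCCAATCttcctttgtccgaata
CAO (chr1:16851272-16851451, minus strand): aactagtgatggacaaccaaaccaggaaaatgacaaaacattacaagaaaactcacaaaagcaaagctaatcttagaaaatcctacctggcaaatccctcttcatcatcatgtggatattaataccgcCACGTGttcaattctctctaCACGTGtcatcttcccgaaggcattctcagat
CHLG (chr3:19219129-19219308, minus strand): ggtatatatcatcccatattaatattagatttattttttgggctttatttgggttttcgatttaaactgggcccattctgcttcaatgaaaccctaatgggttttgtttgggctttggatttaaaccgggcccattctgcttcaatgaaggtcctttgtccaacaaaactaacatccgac
In windows of 250 bases before the start, CCAATC was found in PORB alone of the 8 members, with 2 matches, at bases 219 to 214 and 22 to 17 before the start. The first of these lies within the neighbouring gene AT4G27435 and outside the stretch printed. CACGTG was found in CAO alone of the 8, with 2 matches, at bases 52 to 47 and 32 to 27, and AGATTCT in 0 members. Of 27443 windows of the same length before protein-coding nuclear genes, 10.2% held CCAATC, 6.49% CACGTG and 6.22% AGATTCT. These matches are letters in a window, and binding was not measured here.

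The mutated genes were checked first, and each had less transcript in all 4 mutant libraries. GLK1 had 183, 187 and 203 TPM in WT replicates 1 to 3 and 49.7, 51.0, 56.0 and 49.9 TPM in mutant replicates 1 to 4. GLK2 had 161, 155 and 159 TPM in WT and 50.6, 54.4, 46.0 and 51.5 TPM in the mutant. The mutant means were 27.1% and 32.0% of the WT means. The 2 groups did not overlap for either gene, and the exact two-sided permutation p over the 35 divisions of the libraries was 0.0286 for each, the smallest they allow. In the table of all genes the values of WT replicate 1 stand in alphabetical order of the identifiers and not in the row order. Of the 8 members only CHLG was in an affected row, and its value of 110.94 TPM stands in another row of the table, with 12.02 TPM in the CHLG row as deposited. Chosen markers of shoot mesophyll (4 of 4), root (8 of 8), epidermis and guard cells (4 of 4) and phloem (1 of 1) were above 0 in every library, as a whole seedling holds all of these tissues. In TPM their summed levels overlapped between the groups, at 36725 to 40425 in WT and 36830 to 42335 in the mutant for mesophyll and at 1713 to 2163 and 1847 to 3082 for root. After scaling with trimmed means of M values (TMM) the mesophyll sum did not overlap, at 42342 to 47370 in WT and 31726 to 39628 in the mutant, and RBCS1A, RBCS2B and CA1 were each lower without overlap. Of these 4 genes CA1, a carbonic anhydrase gene, was called lower after TMM scaling (log2 fold change -0.52, limma adjusted p = 0.0368) and not in TPM. The root sum overlapped with both scalings, but most of it was PYK10, at 1631 to 2887 TPM over all libraries. Also lower without overlap after TMM scaling were 2 of 8 root markers and 1 of 4 epidermis and guard cell markers. Over all tested genes that share was 12.1%. The root markers did not move together. After TMM scaling CASP1, COBL9, EXP7 and SCR had log2 fold changes of 0.20, 0.52, 0.35 and 0.12, with overlapping groups. Those of PYK10, TIP2;3, IRT1 and SHR were -0.16, -0.81, -0.95 and -0.06. The part of these marker levels in the falls described below was not tested.

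Because TPM has a fixed sum, a change in abundant transcripts shifts all others. Fold changes below are differences of log2(TPM + 1), mutant minus WT, tested with limma over 19127 genes, and the median over all of them was 0.33 in TPM and 0.0075 after TMM scaling. "Rose" and "fell" are used here only of genes with a limma adjusted p under 0.05 in the same direction with both scalings. By that rule 5 of the 8 members fell (PORA, PORB, PORC, CAO and CHLP) and 0 rose, where 2.53% of all tested genes fell and 3.08% rose. All 8 passed the filter of 1 TPM in 3 libraries, but PORA passed through its WT values alone and so had to differ. Of the other 7 members 4 fell. In TPM alone limma called 5 members lower and 3 higher, against 2.56% and 63% of all genes, and after TMM scaling 5 lower and 0 higher, against 5.1% and 3.08%. In TPM the values of the genotypes did not overlap for any of the 8, with 5 lower and 3 higher in the mutant, against 2.54% and 62.8% of all genes. After TMM scaling 5 were lower without overlap, against 12.1% of all genes. In whole seedlings, fewer cells of a type and less RNA per cell cannot be told apart.

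**Figure D1:**
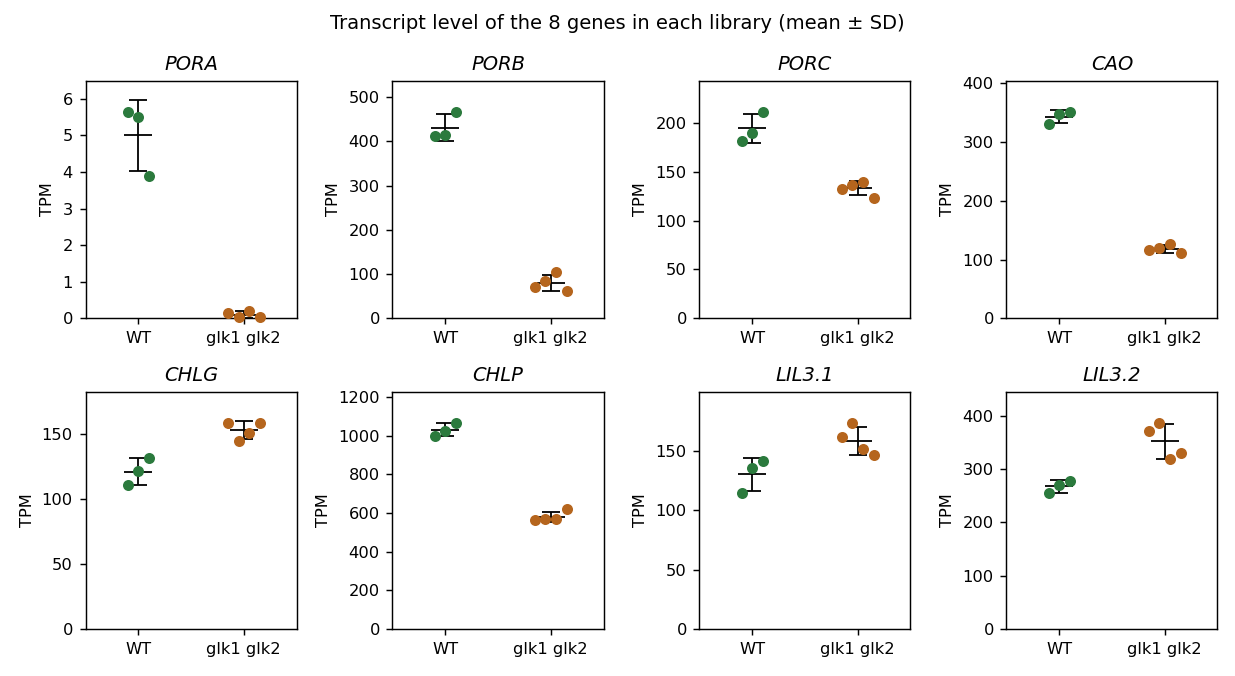
Transcript level in TPM (vertical axes, each from 0) of the 8 genes in 3 WT and 4 glk1 glk2 libraries; points are libraries, bars the mean ± SD. The groups do not overlap in any panel, with the mutant lower for PORA, PORB, PORC, CAO and CHLP and higher, in TPM, for CHLG, LIL3.1 and LIL3.2.

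PORB was the POR gene with the highest level in WT and the one that lost most transcript in absolute TPM. By share PORA lost more, with a mutant mean of 2.0% of its much lower WT mean. PORB had 411, 416 and 467 TPM in WT replicates 1 to 3 and 70.3, 83.5, 104 and 62.4 TPM in mutant replicates 1 to 4. The highest mutant library lay far under the lowest WT library, and the mutant mean was 18.6% of the WT mean. The log2 fold change was -2.44 ± 0.15 (SE, limma adjusted p = 2.62e-05) in TPM and -2.80 ± 0.15 (adjusted p = 1.25e-05) after TMM scaling. By size of fall, PORB ranked 17 of 19127 genes in TPM and 15 after TMM scaling. PORB has a role both in dark-grown and in green tissue.

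PORC, the POR known mainly from light-grown leaves, fell much less. Its values were 182, 190 and 211 TPM in WT and 133, 137, 139 and 123 TPM in the mutant, again with no overlap. The mutant mean was 68.4% of the WT mean, and the log2 fold change in TPM was -0.54 ± 0.07 (SE, limma adjusted p = 5.91e-04), against -0.91 ± 0.08 (adjusted p = 2.10e-04) after TMM scaling.

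PORA, known for its high level in etiolated seedlings and its loss on illumination, was a minor transcript in these light-grown plants. It had 5.64, 5.49 and 3.89 TPM in WT and 0.14, 0.03, 0.20 and 0.03 TPM in the mutant, so every mutant library was close to 0. The log2 fold change, -2.44 in TPM with a pseudocount of 1, understates the difference between means of 5.01 ± 0.97 TPM in WT (SD, n = 3) and 0.10 ± 0.084 TPM in the mutant (SD, n = 4). With a pseudocount of 0.1 it was -4.75. Without any one of the WT libraries PORA no longer passed the filter.

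The make-up of the POR family differed between the genotypes. The summed POR level was 599, 611 and 682 TPM in WT and 203, 220, 244 and 185 TPM in the mutant. PORB made up 68.7%, 68.0% and 68.5% of it in WT, against 34.6%, 37.9%, 42.7% and 33.7% in the mutant. PORC made up 30.3% to 31.1% in WT and 57.2% to 66.3% in the mutant. PORB was thus the main POR transcript in each of the 3 WT libraries and PORC in each of the 4 mutant libraries. PORA held 0.57% to 0.94% in WT and at most 0.082% in the mutant.

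**Figure D2:**
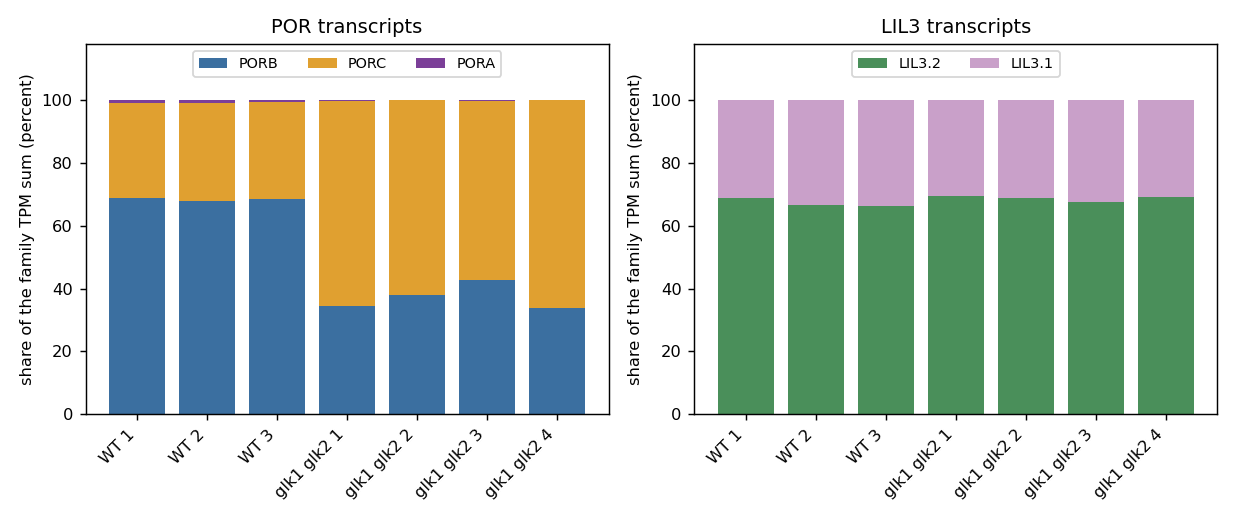
Share of each copy in the summed TPM of its family (vertical axis, percent) for POR (left) and LIL3 (right) in each of the 7 libraries. PORB falls from a mean share of 68.4% in WT to 37.2% in the mutant, while LIL3.2 holds 66.3% to 69.7% in every library.

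CAO makes chlorophyll b and was, with PORB, among the members with a large fall. It had 331, 348 and 351 TPM in WT and 116, 120, 127 and 111 TPM in the mutant. The libraries of each group lay close together and the groups were far apart, and the mutant mean was 34.4% of the WT mean. The log2 fold change was -1.53 ± 0.06 (SE, limma adjusted p = 2.19e-06) in TPM and -1.90 ± 0.06 (adjusted p = 8.01e-07) after TMM scaling. CAO ranked 67 of 19127 genes by size of fall in TPM, beside 61 for GLK2 and 38 for GLK1.

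CHLP was the most abundant of the 8 transcripts in every library. It had 1000.34, 1027 and 1068 TPM in WT and 562, 568, 570 and 619.79 TPM in the mutant. The first 3 mutant libraries were nearly equal and replicate 4 stood above them, still far under WT. The mutant mean was 56.2% of the WT mean, and the log2 fold change was -0.83 ± 0.06 (SE, limma adjusted p = 8.33e-05) in TPM and -1.20 ± 0.07 (adjusted p = 2.79e-05) after TMM scaling.

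CHLG, which acts beside CHLP in adding the tail, neither rose nor fell. It had 111, 121 and 132 TPM in WT and 159, 145, 151 and 159 TPM in the mutant. In TPM all mutant libraries were above all WT libraries, as for 62.8% of all tested genes. The log2 fold change in TPM was 0.34 ± 0.07 (SE, limma adjusted p = 0.0034), at the median of all genes, and after TMM scaling -0.02 ± 0.07 (adjusted p = 0.874) with overlapping groups.

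Neither LIL3 gene rose or fell. LIL3.1 had 115, 135 and 141 TPM in WT and 162, 174, 152 and 146 TPM in the mutant. LIL3.2 had 254, 270 and 277 TPM in WT and 371, 387, 319 and 330 TPM in the mutant. For both genes the groups did not overlap in TPM and overlapped after TMM scaling. The log2 fold changes were 0.28 ± 0.09 for LIL3.1 (SE, limma adjusted p = 0.0209) and 0.39 ± 0.08 for LIL3.2 (adjusted p = 0.0031) in TPM. After TMM scaling they were -0.08 ± 0.10 (adjusted p = 0.668) and 0.03 ± 0.10 (adjusted p = 0.896). Without WT replicate 1 the TPM call of LIL3.1 was lost (log2 fold change 0.19, adjusted p = 0.0798). LIL3.2 held 66.3% to 68.9% of the summed LIL3 level in WT and 67.8% to 69.7% in the mutant, so the ranges overlapped, unlike those of the POR copies.

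**Figure D3:**
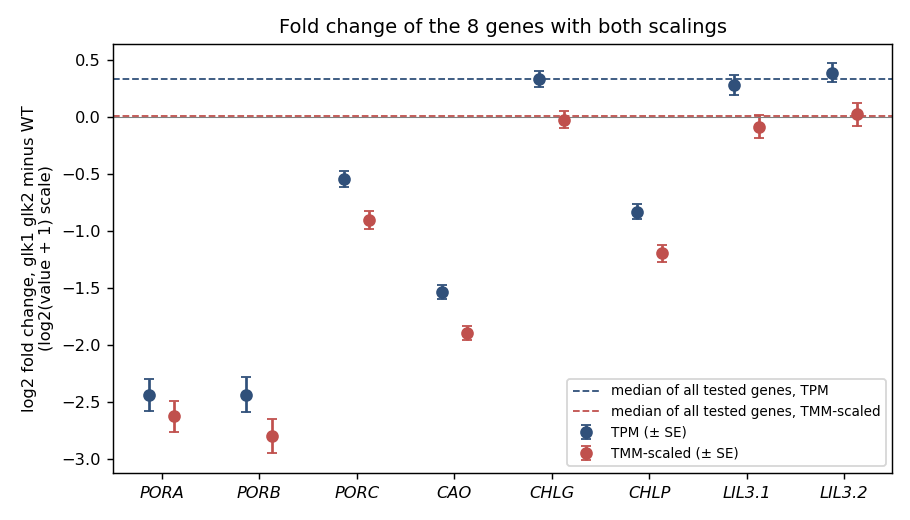
Log2 fold change, glk1 glk2 minus WT, on the log2(value + 1) scale for the 8 genes, in TPM (blue) and after TMM scaling (red), with SE bars; dashed lines are the medians of all 19127 tested genes, 0.33 and 0.0075. CHLG, LIL3.1 and LIL3.2 sit at the dashed line of their colour, and the other 5 lie under it with both scalings.

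In order of level, WT had CHLP, PORB, CAO, LIL3.2, PORC, then LIL3.1 and CHLG, and last PORA. LIL3.1 and CHLG overlapped in WT, at 115 to 141 and 111 to 132 TPM, and the other neighbours in that order did not. In the mutant the order was CHLP, LIL3.2, LIL3.1, CHLG, PORC, CAO, PORB and PORA. There LIL3.1 overlapped CHLG, and PORC (123 to 139 TPM) overlapped CAO (111 to 127 TPM). PORB moved from the second place to the seventh.

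Ratios of 2 members within a library do not depend on how the library is scaled, apart from the pseudocount, and so compare the members with each other directly. Each of the 28 pairs was given an exact permutation test (two-sided, 35 divisions), with Benjamini-Hochberg adjustment over the 28. In 23 pairs the ratio differed between genotypes at an adjusted p of 0.0348, which is the value that the smallest p of 0.0286 gives here. Of these, 6 hold PORA, which passed the filter through WT alone and had to differ, and the others are 17 of the 21 pairs without PORA. The ratio of PORB to PORC was 2.27, 2.19 and 2.21 in WT and 0.529, 0.612, 0.748 and 0.508 in the mutant. Its log2 change was -1.90, that of a copy that lost more than its paralog, and all 4 mutant libraries lay under all 3 WT libraries.

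CAO and CHLG both act on chlorophyllide, and their ratio was 2.98, 2.87 and 2.67 in WT and 0.727, 0.824, 0.841 and 0.697 in the mutant (log2 change -1.87, exact permutation adjusted p = 0.0348). CAO was thus the more abundant transcript in every WT library and CHLG in every mutant library. The ratio of CHLP to CHLG, which together complete the phytyl tail, was 9.02, 8.45 and 8.11 in WT and 3.53, 3.91, 3.78 and 3.90 in the mutant (log2 change of CHLG minus CHLP 1.17, exact permutation adjusted p = 0.0348). CHLP also lost ground against LIL3.1 and LIL3.2, with log2 changes of -1.11 and -1.22 at the same adjusted p.

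Of the other 5 pairs, 3 were among CHLG, LIL3.1 and LIL3.2. The log2 change was 0.06 for CHLG minus LIL3.1 (exact permutation adjusted p = 0.615), -0.05 for CHLG minus LIL3.2 (0.711) and -0.11 for LIL3.1 minus LIL3.2 (0.128). The fourth was PORC minus CHLP, at 0.29 (exact permutation adjusted p = 0.0667), where the CHLP to PORC ratio was 5.06 to 5.51 in WT and 4.09 to 5.04 in the mutant. The fifth was PORA minus PORB, where a log2 change of -0.00025 came from the pseudocount of 1. With pseudocounts of 0.5 and 0.1 it was -0.75 and -2.30, so its size is set by the pseudocount and nothing is read from it. A p above the threshold does not show that the genes of these pairs responded alike.

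**Figure D4:**
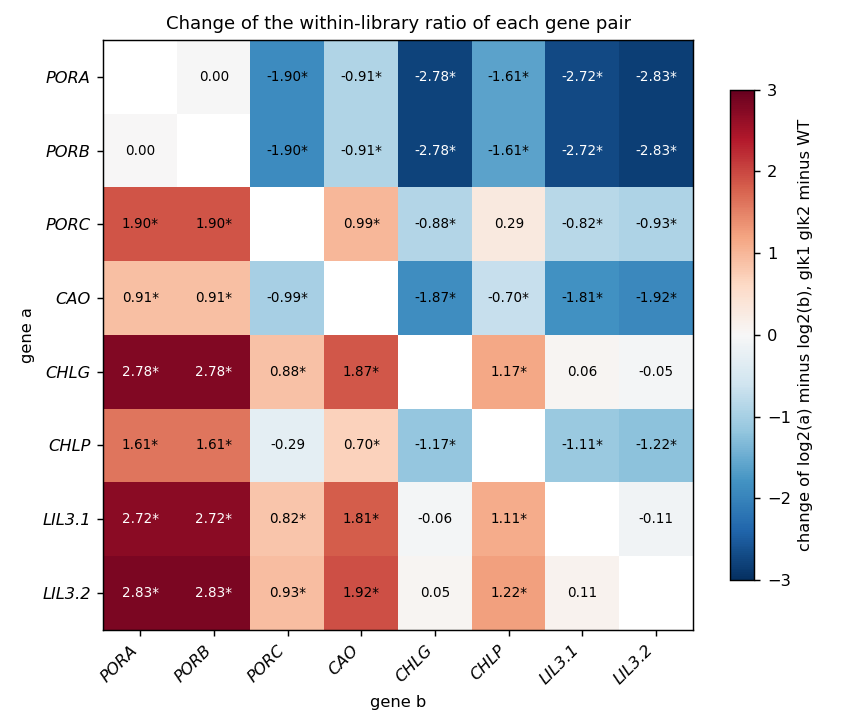
Change between genotypes (glk1 glk2 minus WT) in the log2(TPM + 1) difference of gene a (rows) and gene b (columns) within a library; blue means that gene a lost more than gene b, and asterisks mark an adjusted p under 0.05 (exact permutation, 28 pairs). CHLG, LIL3.1 and LIL3.2 form a pale block with changes of at most 0.11 in size among themselves, with opposite signs in the mirrored cells.

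Genes for the steps upstream of POR were tested as well. Of 9 genes of the magnesium branch, from magnesium chelatase to the vinyl reductase, 8 fell and 0 rose. Of all tested genes 2.53% fell and 3.08% rose. GUN4, an activator of magnesium chelatase, fell from 447 ± 23.4 TPM in WT (SD, n = 3) to 188 ± 10.3 TPM in the mutant (SD, n = 4), CHLM, a methyltransferase, from 350.1 ± 17.5 to 205 ± 11.7 TPM, and YCF54, a partner of the cyclase, from 134 ± 14.8 to 80.5 ± 7.49 TPM. With single libraries left out 6 to 8 fell, and the calls lost were those of CHLI2 and DVR. Of 14 tested genes of the early steps, from glutamate to protoporphyrin, 5 fell and 0 rose, against the same shares. In TPM alone limma called 5 of the 14 lower and 2 higher, where 2.56% and 63% of all genes were. After TMM scaling it called 6 lower and 0 higher, where 5.1% and 3.08% of all genes were. HEME1 and HEME2, uroporphyrinogen decarboxylases, fell with log2 fold changes in TPM of -1.32 and -0.74, and HEMA1, the glutamyl-tRNA reductase that starts the pathway, with -1.27. The median log2 fold change in TPM was -0.50 for the magnesium branch and -0.0068 for the early steps, beside 0.33 for all genes. The fall of PORB, at -2.44, was larger than that of every tested gene of these lists, and the largest of them was that of HEME1.

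In the chlorophyll cycle, whose enzymes turn chlorophyll b back to a and so run against CAO, 0 of 3 genes rose or fell. NYC1, a chlorophyll b reductase, had 66.5 ± 3.43 TPM (SD, n = 3) in WT and 87.2 ± 2.54 TPM (SD, n = 4) in the mutant, NOL, its partner, 21.5 ± 1.42 and 24.1 ± 1.11 TPM, and HCAR, the hydroxymethyl chlorophyll a reductase, 10.9 ± 0.88 and 14.4 ± 0.76 TPM. In TPM limma called 2 of the 3 higher, against 63% of all genes. After TMM scaling it called 0 higher and 0 lower, against 3.08% and 5.1% of all genes (limma adjusted p = 0.820 for NYC1, 0.167 for NOL and 0.868 for HCAR). At an unadjusted limma p under 0.05 there were 3 of 3 in TPM, higher, and 1 of 3 after TMM scaling, NOL, lower, where in TPM 67.3% of all genes pass that threshold upward and 2.74% downward, and with TMM factors 11.8% and 12.7%. The median of the 3 log2 fold changes in TPM was 0.37, beside 0.33 for all genes.

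CHLP draws its substrate from the plastid isoprenoid pathway. Of 9 genes of the methylerythritol phosphate (MEP) pathway and of geranylgeranyl diphosphate synthesis, 1 fell and 0 rose. Of all tested genes 2.53% fell and 3.08% rose. DXS, the enzyme at the entry of the MEP pathway, fell from 339 ± 12.1 TPM in WT (SD, n = 3) to 212 ± 17.5 TPM in the mutant (SD, n = 4). In TPM 6 of the 9 genes had a limma adjusted p under 0.05 with more transcript in the mutant, and 1, DXS, with less. Over all genes those shares were 63% and 2.56%. With TMM factors 3 of the 9 passed the same threshold downward and 0 upward, where 5.1% and 3.08% of all genes did. The median log2 fold change of the list was 0.29 in TPM, beside 0.33 for all genes. Among 7 genes for tocopherol and phytol use, which draw on the same phytyl group, 1 rose and 1 fell, where 3.08% and 2.53% of all genes did. In TPM limma called 5 of the 7 higher and 1 lower, against 63% and 2.56% of all genes. After TMM scaling it called 1 higher and 2 lower, against 3.08% and 5.1%. VTE4, a tocopherol methyltransferase, rose from 43.7 ± 3.39 to 81.7 ± 3.77 TPM, and VTE5, which recycles phytol, fell from 58.5 ± 1.36 to 45.01 ± 3.75 TPM. Without mutant replicate 3, 2 rose, the other being VTE1, the tocopherol cyclase gene.

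Other proteins of the LIL family were measured beside LIL3. Of 6 genes, ELIP1 and ELIP2, which encode light-stress proteins that bind chlorophyll, rose with log2 fold changes of 2.05 and 2.35 in TPM, and the other 4 (OHP1, OHP2, SEP1 and SEP2) neither rose nor fell. Of all tested genes 3.08% rose and 2.53% fell. In TPM alone limma called 4 of the 6 higher and 0 lower, where 63% and 2.56% of all genes were. Of 11 known regulators of chlorophyll synthesis or of its genes, among them PIF1, PIF3, HY5, EIN3 and FLU, 1 rose and 0 fell. That gene was GNC, a GATA factor known to promote greening, at 28.8 ± 3.19 TPM (SD, n = 3) in WT and 51.1 ± 3.88 TPM (SD, n = 4) in the mutant. In TPM alone limma called 7 of the 11 regulators higher and 0 lower, against the same 63% and 2.56%. After TMM scaling it called 1 higher and 1 lower, where 3.08% and 5.1% of all genes were. Without mutant replicate 3, 2 rose (GNC and HY5) and GNL, a GATA factor like GNC, fell, with a log2 fold change of -0.35 in TPM (limma adjusted p = 0.0358). GNL also fell without mutant replicate 1 (-0.37, limma adjusted p = 0.0305).

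**Figure D5:**
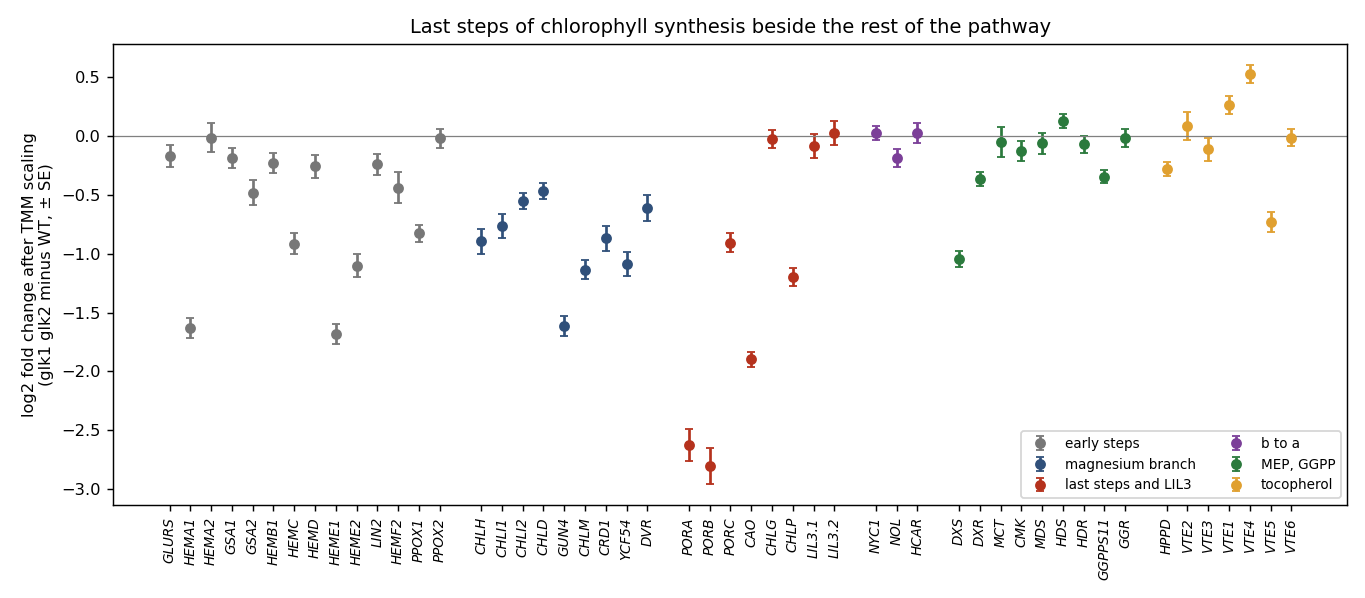
Log2 fold change after TMM scaling (vertical axis, glk1 glk2 minus WT, ± SE) of the 8 genes (red) beside the tested genes of the early steps, the magnesium branch, the chlorophyll cycle, the isoprenoid supply and tocopherol synthesis. PORA and PORB lie lowest, at -2.63 and -2.80, and CHLG and both LIL3 genes lie at the level of the chlorophyll cycle genes.

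The genes with profiles over the 7 libraries most like each member were found by Euclidean distance of log2(TPM + 1), centred on the WT mean, among 14028 tested genes with at least 5 TPM in WT. For PORB they were CAB3 (LHCB1.2), an antenna gene, at a distance of 0.36, and SQE6, a squalene epoxidase gene, at 0.40. For PORA the distances are set by the pseudocount of 1. At that setting ASN1, an asparagine synthetase gene, lay at 0.25 and SQE6 at 0.45, although ASN1 went from 51.6 ± 6.92 TPM in WT (SD, n = 3) to 9.18 ± 1.34 TPM in the mutant (SD, n = 4) and PORA from 5.01 to 0.10 TPM, so PORA is not shown to be like them. CAO lay nearest to LHCA2, an antenna gene of photosystem I, at 0.24, and to AT3G28220 at 0.28. CHLP lay nearest to PSAH-1, a photosystem I subunit gene, at 0.16, and to AT2G47450 at 0.19. PORC lay nearest to HCF107, a plastid RNA-binding factor, at 0.12, and to AT1G54820 at 0.14. CHLG, LIL3.1 and LIL3.2, whose fold changes were those of many genes, had neighbours at 0.067 to 0.12, of which AT5G28500, MORF9 and AT1G55805 were the nearest to each.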

How the data were processed

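RNA sequencing of 7 seedling libraries was analysed. The authors deposited 1 table of TPM values, scaled to a total of 1000000 per library. TopHat2, Cufflinks and TAIR10 are named per the submitters' processing notes, and no source used here gives their versions, the annotation, the strand setting or the filters. The read depth is unknown, so no counting interval is given.

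WT replicate 1 was read in alphabetical order of the identifiers. In the 5606 affected rows the correlation of its log2(TPM + 1), across genes, with the average of the remaining 6 columns was 0.055 in the deposited order and 0.995 in alphabetical order.

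Genes with at least 1 TPM in at least 3 libraries were tested with limma 3.58.1 in R 4.3.3 (two-sided, with a mean-variance trend, adjusted by Benjamini-Hochberg over 19127 genes), on TPM and after division by unweighted TMM factors (trims of 30% and 5%). Pathway lists are described by counts. Up to 3 genes that rose or fell with the largest change were named per list, all of lists of 3, and the 2 nearest profiles per member. The other names were chosen after their values were seen. The members and lists were chosen with earlier results of these data known. Alternatives changed the pseudocount, filter, scaling, variance model, libraries, replicate block and row order. The fits were also run on simulated data in which only a small set of genes was changed. The rule of both scalings was therefore not tested under a shift of most genes.

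Loci and sequences came from the RefSeq annotation of TAIR10.1. The deposited table holds no coordinates.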

Additional observations from a re-analysis of the deposited data

Results flagged for a closer look

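Among 40 sets of 4 mutant values examined (the members, the targeted genes, the named pathway genes, and the family sums, shares and ratios), 2 had 1 library far from the other 3, and chance gives about 1 in 20. CHLP had 619.79 TPM in mutant replicate 4, against 562 to 570 TPM in the other mutant libraries. The ratio of CHLP to PORC was 5.04 in the same library, against 4.09 to 4.23 in the others. CHLP fell without that library as well, with a log2 fold change of -0.86 in TPM.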

How the results depend on the processing

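PORB, PORC, CAO and CHLP fell under each alternative run, and so did PORA wherever it passed the filter. It did not pass with a mean of at least 5 TPM or without any one WT library, and the number of members that fell was then 4. Over the alternatives, with TPM and TMM scaling, the log2 fold change ranged from -2.92 to -2.33 for PORB, -0.96 to -0.48 for PORC, -1.93 to -1.50 for CAO and -1.23 to -0.81 for CHLP. For CHLG, LIL3.1 and LIL3.2 the TPM calls rested on the scaling. After TMM scaling the log2 fold changes were -0.024, -0.083 and 0.027, and with quantile normalization 0.028, -0.038 and 0.15, none with an adjusted p under 0.05. LIL3.1 also lost its call without WT replicate 1 (0.19; up to 0.34 with other libraries left out). With WT replicate 1 as deposited CHLG had 1.37 (limma adjusted p = 0.194), from the value of another row. With array weights 7 pathway genes rose, against 4. Single libraries left out gave 0 pairs that differed, as fewer libraries cannot reach the threshold. PORA minus PORB then changed by -0.20 to 0.11, of which 0.11, 0.088, 0.059 and 0.091 had the opposite sign, as had CHLG minus LIL3.2 at 0.021 without mutant replicate 2 (lowest -0.098) and at 0.98 with WT replicate 1 as deposited. Over all genes 975 fell after TMM scaling alone and 922 with quantile normalization, against 483 with both scalings. The number that rose, 589, was 192, 162 and 312 without WT replicate 1, 2 or 3, 308 without mutant replicate 1, 195 with the deposited order of WT replicate 1, 234 with the replicate block and 2562 with array weights. Same-numbered WT and mutant libraries did not deviate together in every pair (r = -0.096, 0.17 and 0.15 across genes). These values lay within the range of the other-numbered pairs, -0.24 to 0.28, and the numbers were not taken as pairs. With the replicate block, fitted without mutant replicate 4, 5 members fell and 0 rose, and 0 pairs differed, as 3 numbered pairs cannot reach the threshold.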
